A study of Sorghum propinquum with 2 samples.

Results

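Phenylalanine ammonia-lyase (PAL) transcripts were compared between the rhizome and the shoot of *Sorghum propinquum*, a wild grass related to crop sorghum whose underground stems, the rhizomes, let it spread. The family was taken as a list of 8 locus IDs, 6 of them a tandem array on chromosome 4 and the other 2 a pair on chromosome 6, by the numbers in the IDs. The deposited tables list 5 of the 8 among 24371 genes. These are Sb04g026510, Sb04g026520 and Sb04g026560 of the array and both members of the pair, Sb06g022740 and Sb06g022750. The IDs Sb04g026530, Sb04g026540 and Sb04g026550 are not in the tables and were not analysed here. Every listed gene has a read in at least 1 library, so whether these IDs had no reads or were absent for another reason cannot be told. Neither the tables nor the labels pair an ID with a product, so the family name could not be checked against the data.

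Total RNA came from rhizomes and shoots of 1 vegetative clone of an unnamed accession, grown in a greenhouse and sampled at active tillering, when side shoots form. The series asked how the transcriptomes of the organs differ. Each organ had 1 library, with 16862624 reads in genes for the rhizome and 17153968 for the shoot. No value below therefore has an error between plants, and no p-value is given. The 95% intervals are exact and take in the error of counting alone, and reads may not be independent molecules. Both organs come from the same clone, so the values describe that clone. Marker genes of the organs could not be checked for want of gene names.

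PAL removes the amino group of phenylalanine to give cinnamic acid, the entry reaction of the phenylpropanoid pathway. That pathway leads to the monolignols, from which lignin is built in the walls of water-conducting cells and fibres, and to flavonoids and other phenolic compounds. In grasses some PAL enzymes also accept tyrosine. Plants commonly carry several PAL genes, and tandem copies are frequent in grasses. The tables do not say which enzyme of the family each ID encodes, and no role beyond the family name is given to a member here.

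Every listed member had a lower level in the rhizome library than in the shoot library. Summed over the 5 members, there were 20894 reads in the rhizome library, against 211174 in the shoot library. The family thus took 0.124% of the rhizome reads (interval 0.122% to 0.126%), against 1.23% of the shoot reads (1.226% to 1.236%). As shares of the summed RPKM of all listed genes, where RPKM counts reads for every 1000 bases of a gene in every 1000000 reads of the library, they were 0.0827% in the rhizome and 0.763% in the shoot. The log2 ratio of rhizome to shoot for this sum was -3.31 (interval -3.33 to -3.29), which is 9.94-fold lower in the rhizome. In such bulk samples, fewer cells of a type and less RNA per cell cannot be told apart.

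Sb04g026510 of the array was the most abundant member in both libraries. It had 211 RPKM (12242 reads) in the rhizome library, against 2737 RPKM (161536 reads) in the shoot library. Its log2 ratio of rhizome to shoot was -3.70 (interval -3.72 to -3.67), or 13.0-fold lower in the rhizome. This locus ranked 105th by reads and 282nd by RPKM among the 24371 listed genes in the rhizome library. In the shoot library the same locus ranked 1st by reads and 6th by RPKM. The shoot excess of this locus, 8691 reads per 1000000, was the largest of any listed gene.

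Its next neighbour in ID order, Sb04g026520, was lower in both libraries. It had 67.5 RPKM (4824 reads) in the rhizome library, against 244 RPKM (17723 reads) in the shoot library. Its log2 ratio was -1.85 (interval -1.90 to -1.81), or 3.61-fold lower in the rhizome. That was just short of 4-fold, the size at which genes were called different here. After scaling that sets the median ratio of shared genes to 1, the log2 ratio was -2.07, and after trimmed-mean (TMM) scaling it was -2.02, both past 4-fold.

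Sb04g026560, at the far end of the array, was the least abundant of its listed members. It had 8.29 RPKM (300 reads) in the rhizome library, against 23.1 RPKM (852 reads) in the shoot library. With a log2 ratio of -1.48 (interval -1.68 to -1.29), it was 2.79-fold lower in the rhizome, the smallest gap of the 5 members.

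Sb06g022740 was the more abundant member of the chromosome 6 pair. It had 82.8 RPKM (3446 reads) in the rhizome library, against 718 RPKM (30378 reads) in the shoot library. Its log2 ratio was -3.12 (interval -3.17 to -3.06), or 8.67-fold lower in the rhizome. By reads it ranked 861st in the rhizome library and 16th in the shoot library.

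Sb06g022750, the other member of the pair, had the lowest level of the 5 in both libraries. It had 2.12 RPKM (82 reads) in the rhizome library, against 17.4 RPKM (685 reads) in the shoot library. Its log2 ratio was -3.04 (interval -3.39 to -2.71), or 8.21-fold lower in the rhizome. It was the only listed member under 5 RPKM in the rhizome library, so it passed that minimum through its shoot value.

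**Figure D1:**
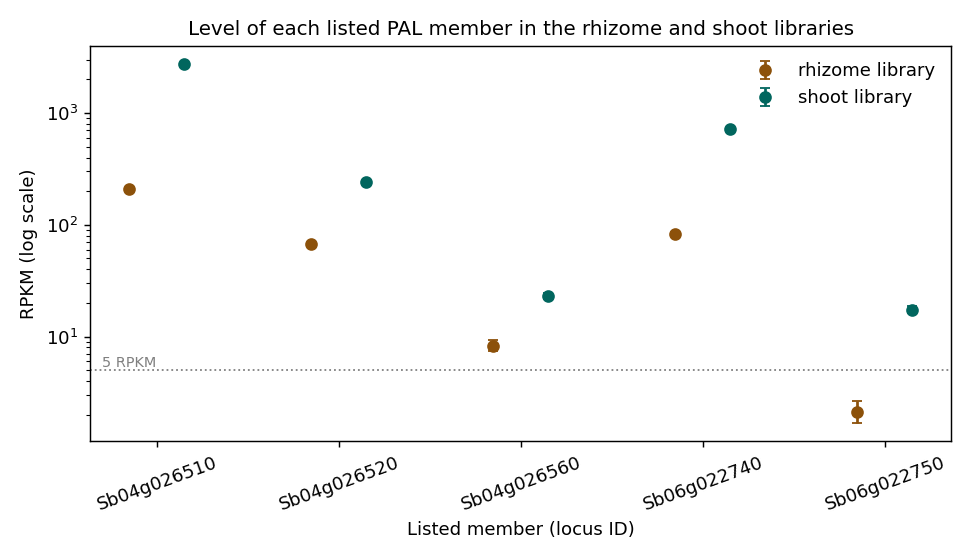
RPKM of the 5 listed PAL members (log scale) in the rhizome library (brown) and the shoot library (green), with exact 95% Poisson limits of the reads, often smaller than the point. The rhizome value lies below the shoot value for each member, and rhizome levels span 2.12 to 211 RPKM, against 17.4 to 2737 RPKM for the shoot.

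The order of the members by RPKM was the same in both libraries. Sb04g026510 stood highest, followed by Sb06g022740, Sb04g026520, Sb04g026560 and Sb06g022750. No counting limits of members next to each other in this order overlapped in either library. Taken as a ratio, the closest limits in the rhizome library were those of Sb04g026520, 65.6 to 69.4 RPKM, and Sb06g022740, 80.1 to 85.6 RPKM. In the shoot library the closest were Sb06g022750, with limits of 16.1 to 18.8 RPKM, and Sb04g026560, with 21.6 to 24.8 RPKM. How the lengths that enter RPKM were measured, and whether they take in introns, is not stated. Over all listed genes they run from 124 to 89248 bases, and the order of members by RPKM depends on them. The members are listed at 3441 bases (Sb04g026510), 4239 bases (Sb04g026520), 2146 bases (Sb04g026560), 2468 bases (Sb06g022740) and 2292 bases (Sb06g022750). By plain reads, Sb04g026520 came before Sb06g022740 in the rhizome library.

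Against all genes, the listed members stood towards the shoot. Genes were called different at 4-fold or more with at least 5 RPKM in the higher library. By that rule 3 of the 5 members, Sb04g026510, Sb06g022740 and Sb06g022750, were called lower in the rhizome, against 9.02% of the 12826 genes that reached 5 RPKM somewhere. Of these members, Sb06g022750 met the minimum only in the shoot library, the side on which it was higher. Called higher in the rhizome were 0 of the 5 members, against 1.8% of those genes. All 5 members were at least 2-fold lower in the rhizome, against 16.8% of genes, and 3 were at least 8-fold lower, against 5.22%. Of these 3, Sb06g022750 had a counting interval of 6.52-fold to 10.5-fold lower, which includes 8-fold. At least 2-fold higher in the rhizome were 0 members, against 11% of genes, and at least 8-fold higher were 0, against 0.756%. Any lower value in the rhizome was found for 5 of 5 members and for 40.6% of genes.

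The median log2 ratio of rhizome to shoot was -3.04 over the 5 members, against 0.20 over the 12826 genes, whose quartiles were -0.50 and 0.64. The member median is the value of Sb06g022750, which had 82 rhizome reads and reached 5 RPKM only in the shoot library. Among the 12826 genes, 3.98% had a lower log2 ratio than Sb04g026510, 4.95% than Sb06g022740 and 5.11% than Sb06g022750. For Sb04g026520 the share was 9.84%, and for Sb04g026560 it was 12.4%. The same rule was also read at higher levels. Among the 971 genes at 100 RPKM or more in their higher library the share was 18.7%, and 2 of the 3 members at that level were called. Among the 148 genes at 500 RPKM or more it was 29.7%, and both members at that level, Sb04g026510 and Sb06g022740, were called. Both reached 500 RPKM only in the shoot library, with 211 and 82.8 RPKM in the rhizome library. Likewise, Sb06g022740 and Sb04g026520 reached 100 RPKM only in the shoot library. The limits of 100 and 500 RPKM were applied to the higher library, so a large difference can itself place a gene past them. The shares were not tested against each other. The family is small and its copies may share reads, so these shares describe this pair of libraries.

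**Figure D2:**
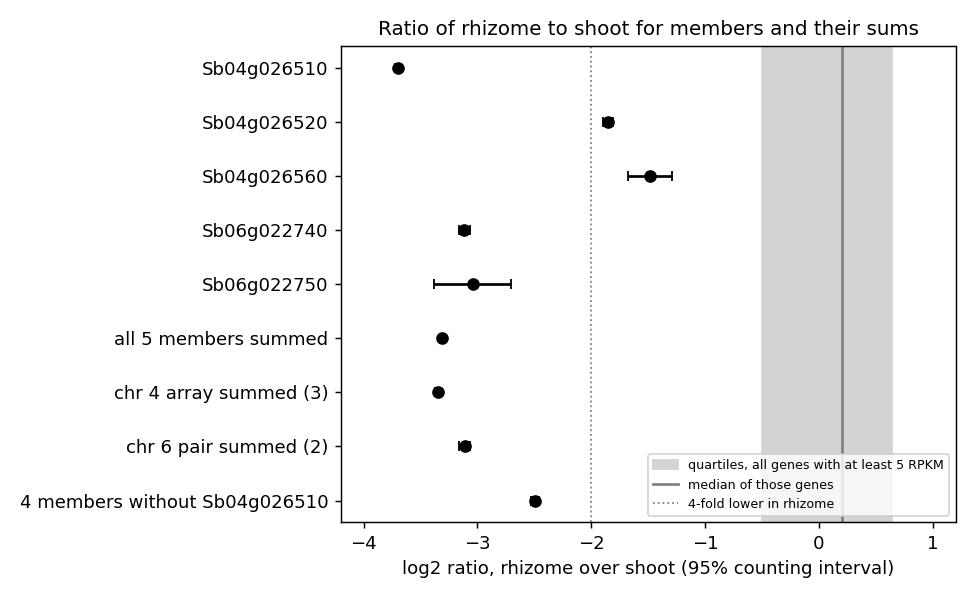
Log2 ratio of rhizome to shoot for each listed member and for sums over members, with exact 95% counting intervals, beside the median (0.20) and quartiles (-0.50 and 0.64, grey band) of the 12826 genes that reached 5 RPKM in an organ. All points lie left of the band, from -3.70 for Sb04g026510 to -1.48 for Sb04g026560, and the dotted line marks 4-fold lower in the rhizome.

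**Figure D3:**
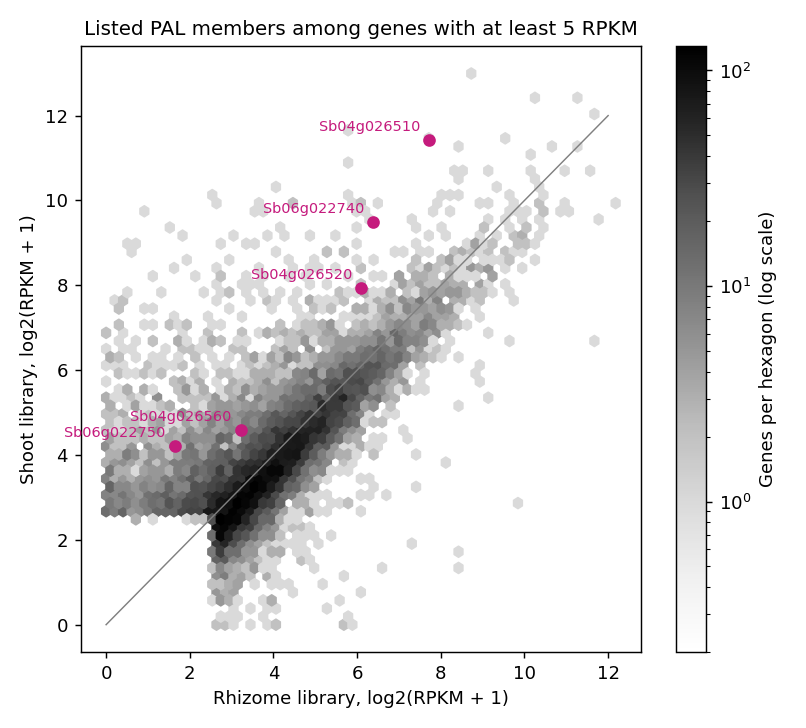
Shoot level against rhizome level, both as log2(RPKM + 1), for the 12826 genes that reached 5 RPKM in an organ (grey hexagons, shaded by the number of genes on a log scale) with the 5 listed PAL members in pink. The line marks equal values, and all 5 members lie above it, on the shoot side.

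Sb04g026510 made up most of the family in both libraries, and more so in the shoot. It accounted for 56.8% of the summed member RPKM in the rhizome library, against 73.2% in the shoot library. Sb04g026520 accounted for 18.2% in the rhizome library, against 6.52% in the shoot library. The shares of Sb06g022740 were closer, at 22.3% for the rhizome and 19.2% for the shoot. Sb04g026560 made up 2.23% in the rhizome library, against 0.619% in the shoot library, and Sb06g022750 made up 0.571% in the rhizome library, against 0.466% in the shoot library.

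The difference of the summed listed members was carried mostly by that same locus. Of the gap in reads per 1000000 between the libraries, Sb04g026510 accounted for 78.5%, Sb06g022740 for 14.1% and Sb04g026520 for 6.75%. Without Sb04g026510, the other 4 members summed to 8652 reads in the rhizome library, against 49638 in the shoot library. Their log2 ratio was -2.50 (interval -2.53 to -2.46), or 5.64-fold lower in the rhizome. The 3 called members together held 8.50% of all shoot reads in the 1157 genes that were called lower in the rhizome. Of the 192599 shoot reads of these members, 161536 were from Sb04g026510. The 1157 genes were themselves picked by their higher shoot values in these libraries.

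**Figure D4:**
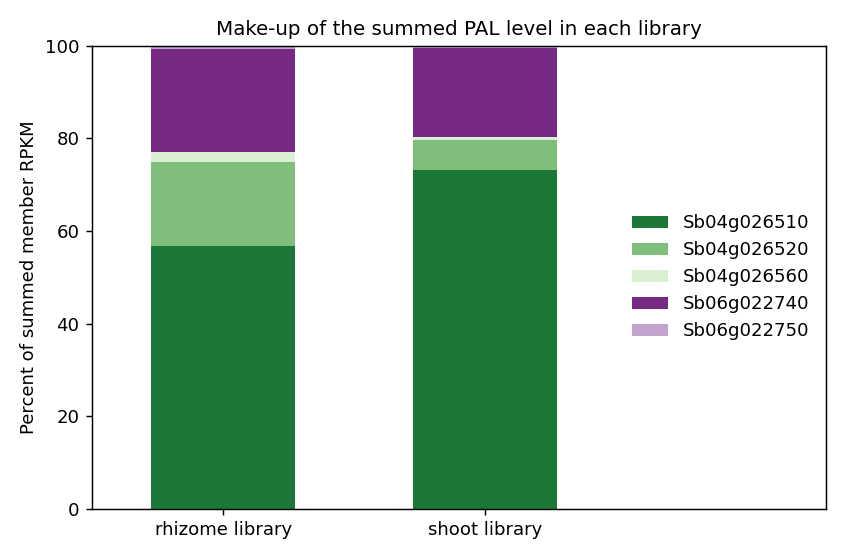
Percent of the summed RPKM of the 5 listed members that each member made up, in the rhizome library (left bar) and the shoot library (right bar). Sb04g026510 is the largest part of both bars, at 56.8% for the rhizome and 73.2% for the shoot, and Sb04g026520 differs most in the other direction, at 18.2% for the rhizome and 6.52% for the shoot.

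In plain ratios of reads, tandem neighbours lay close together in the chromosome 6 pair and far apart at the start of the chromosome 4 array. In the pair, Sb06g022740 was 39.0 times as abundant per length as Sb06g022750 in the rhizome library, against 41.2 times in the shoot library. The shoot-over-rhizome fold of Sb06g022740 was 1.06 times that of Sb06g022750 (interval 0.827 to 1.33), so no difference between their folds was detectable at this depth. Their log2 ratios differed by 0.08 between members, while their levels differed widely. With a pseudocount of 1 RPKM, which pulls the low values of Sb06g022750 towards each other, the difference was 0.54.

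In the array, Sb04g026510 was 3.13 times as abundant per length as Sb04g026520 in the rhizome library, against 11.2 times in the shoot library. The shoot-over-rhizome fold of Sb04g026510 was 3.59 times that of Sb04g026520 (interval 3.46 to 3.73), a difference of 1.84 in log2 ratio. Sb04g026520 and Sb04g026560, between which the 3 unlisted IDs fall, were closer. The fold of Sb04g026520 was 1.29 times that of Sb04g026560 (interval 1.13 to 1.48), a difference of 0.37 in log2 ratio. Sb04g026510 and Sb04g026560, the ends of the array, were furthest apart in ratio of its listed members.

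These differences can be read beside those of other genes. Pairs of listed genes with consecutive IDs were used. Both genes of a pair had at least 5 RPKM in the higher library and reads in both libraries. Over the 7036 such pairs, the median absolute difference in log2 ratio was 0.81, with quartiles of 0.36 and 1.68. The difference of 1.84 between Sb04g026510 and Sb04g026520 was larger than that of 78.0% of these pairs. The 0.37 between Sb04g026520 and Sb04g026560 was larger than that of 25.8%. For the chromosome 6 pair, 5.46% of neighbour pairs differed by less. This share leaves out the error of counting, and Sb06g022750 had only 82 reads in the rhizome library. With a pseudocount of 1 RPKM the share was 39.6%, of 7098 pairs, since pairs with a gene at 0 reads in a library then enter. The close likeness of the pair thus holds for plain ratios and not on that scale.

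Across the clusters, the ratio of Sb04g026510 lay nearer to those of the chromosome 6 pair than to those of its own array. Its log2 ratio lay 0.58 from that of Sb06g022740 and 0.66 from that of Sb06g022750, against 1.84 from that of Sb04g026520 and 2.22 from that of Sb04g026560. The fold of Sb04g026510 was still 1.50 times that of Sb06g022740 (interval 1.44 to 1.56). The array as a whole, summed over its 3 listed members, had 17366 reads in the rhizome library, against 180111 in the shoot library. Its log2 ratio of -3.35 (interval -3.37 to -3.33) was below the -3.11 (interval -3.16 to -3.06) of the summed pair, and the intervals did not overlap. The pair had 3528 reads in the rhizome library, against 31063 in the shoot library. The sum over the array without Sb04g026510 gave -1.83 (interval -1.88 to -1.79). If reads that match several listed copies were each counted once among them, sums do not depend on how they were divided. The values of single members do. Sums would change too if such reads were left out, counted for every copy or given to other loci. How the authors treated such reads is not stated.

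The genes on either side of the clusters had at most 13.5 RPKM in the shoot library, below each listed member there, while in the rhizome library they had up to 7.32 RPKM, and 4 of the 8 stood above Sb06g022750 there. Before the array, Sb04g026506 had 2.03 RPKM in the rhizome library, against 2.34 in the shoot library, and the interval of its ratio included equality. Sb04g026500 had 5.81 RPKM in the rhizome library, against 10.6 in the shoot library, 1.82-fold lower in the rhizome (interval 1.63 to 2.04). After the array, Sb04g026570 had 0 reads in the rhizome library, against 11 in the shoot library. Sb04g026580 had 0 reads in the rhizome library, against 93 in the shoot library, at least 30.5-fold lower in the rhizome if 3 reads are taken as the limit for a count of 0 in a library.

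Beside the chromosome 6 pair, Sb06g022730 ran the other way from the members, with 3.71 RPKM in the rhizome library, against 1.64 in the shoot library, 2.26-fold higher in the rhizome (interval 1.81 to 2.85). Sb06g022720 had 2 reads in the rhizome library, against 0 in the shoot library. On the other side, Sb06g022760 had 2.62 RPKM in the rhizome library, against 2.19 in the shoot library, with an interval that included equality. Sb06g022770 had 7.32 RPKM in the rhizome library, against 13.5 in the shoot library, 1.84-fold lower in the rhizome (interval 1.54 to 2.19). None of these 8 flanking genes was called in either direction, since those past 4-fold did not reach 5 RPKM.

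**Figure D5:**
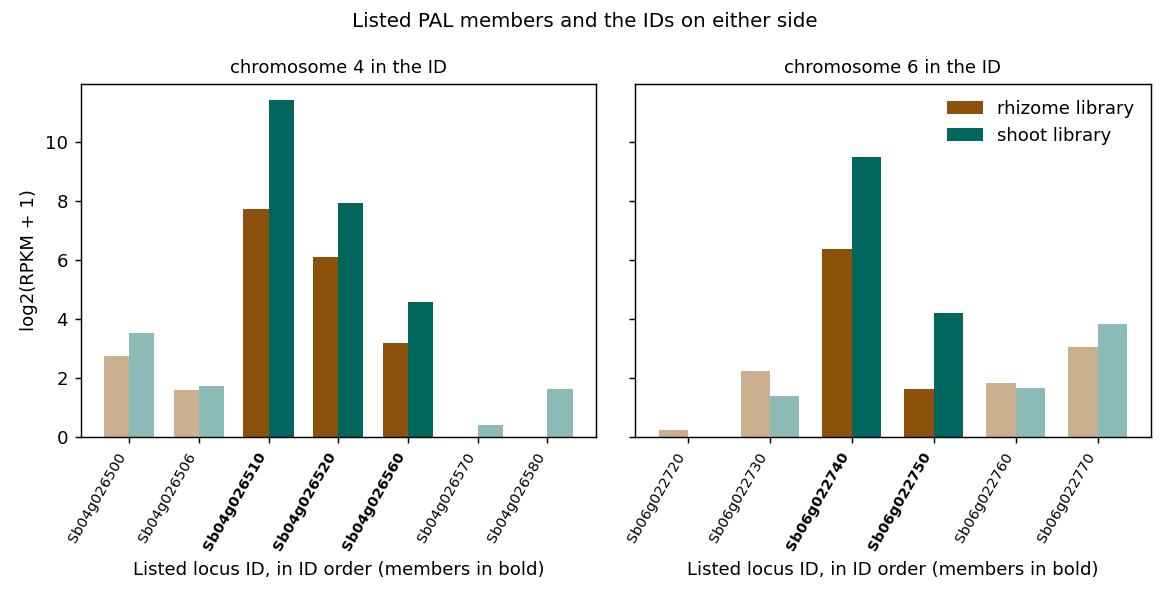
Level as log2(RPKM + 1) in the rhizome library (brown) and the shoot library (green) of the listed members (bold, full colour) and of the 2 listed IDs on each side (pale), in ID order for chromosome 4 and chromosome 6 by the ID. The green bar is taller than the brown bar at all 5 members and at some flanking genes, and the flanking genes are at most 13.5 RPKM in either library.

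The genes whose levels in the 2 libraries lay nearest to those of Sb04g026510 were Sb07g023800 and Sb08g008190, at distances of 0.68 and 0.86 on the log2(RPKM + 1) scale. Sb07g023800 had 338 RPKM in the rhizome library, against 2578 RPKM in the shoot library, and Sb08g008190 had 300 RPKM in the rhizome library, against 1686 RPKM in the shoot library. Likeness over 2 values is a description of level and ratio only.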

How the data were processed

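Total RNA was extracted with TRIzol and sequenced as Illumina libraries, per the labels' protocols. No source used here gives the aligner, counting program, genome build, annotation or strand setting, so these are not stated. The deposited counts are whole reads per gene, per the file headers, and every listed gene has a read in at least 1 library. The RPKM values of the authors, recomputed from counts, listed lengths and column totals, differed by less than 0.0001. Totals of 16862624 (rhizome) and 17153968 (shoot) reads set the precision.

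Ratios were taken from counts scaled by column totals, with conditional Clopper-Pearson 95% intervals; level limits are exact Poisson. With 1 library per organ nothing measures the spread between samples, so no test was made and genes were called at 4-fold with at least 5 RPKM in the higher library. Named genes were all listed members, 2 IDs on each side of each cluster, and the 2 nearest genes to the most abundant member. Lists by product name could not be filled. Members, lists and rules were chosen with earlier results of these data known. Scaling, pseudocount, fold and minimum were varied. The code was checked on simulated counts. TMM factors came from edgeR 4.0.16 in R 4.3.3, and the rest from scipy 1.17.1, pandas 2.3.3, numpy 2.4.6 and matplotlib 3.10.9 in Python 3.11.15.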

Additional observations from a re-analysis of the deposited data

How the results depend on the processing

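All 45 log2 ratios of rhizome to shoot recomputed for the 5 members and 3 sums stayed negative, from -3.92 to -1.38. Median-of-ratios scaling shifts every log2 ratio by -0.22 and TMM scaling by -0.17. Median-of-ratios scaling gave -3.92 for Sb04g026510, -2.07 for Sb04g026520, -1.70 for Sb04g026560, -3.34 for Sb06g022740, -3.53 for the family sum, -3.57 for the array and -3.34 for the pair (-3.335). TMM scaling gave -3.87 for Sb04g026510, -2.02 for Sb04g026520, -3.29 for Sb06g022740, -3.48 for the family sum, -3.52 for the array and -3.29 for the pair (-3.286). Both brought the count of members called lower in the rhizome to 4, against 3 as reported. With a minimum of 20 RPKM, which Sb06g022750 did not reach, the count was 2. With a 2-fold threshold it was 5, against 16.8% of genes. The share of all genes called was not worked out for either scaling or for the minimum of 20 RPKM. The counts of 4 and 2 thus have no background to be read against. Both scalings also move every gene towards the shoot, members or not. A pseudocount of 1 RPKM gave -2.56 for Sb06g022750 and so a difference of 0.54 within the chromosome 6 pair, which is larger than the 0.08 reported, since 1 RPKM is large beside its 2.12 RPKM. Summing RPKM gave the array -3.39, and with pseudocounts -3.38 (1 RPKM) and -3.39 (0.1 RPKM).

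Chosen after seeing the data, the sum without Sb04g026510 gave -2.50 for the family and -1.83 for the array, and family shares of 0.0513% in the rhizome and 0.289% in the shoot. Shares were 0.146% in the rhizome and 1.45% in the shoot with the 100 genes with most reads in each library left out of the totals, members kept, and 0.0827% in the rhizome and 0.763% in the shoot as shares of summed RPKM. By plain reads Sb04g026520 was at rank 2 and Sb06g022740 at rank 3 among the members in the rhizome library, against 3 and 2 by RPKM. The pathway lists stayed empty for want of gene names, so their alternatives were left out. No paired analysis was possible because there is a lone library for each organ, and no library could be left out. Depth limited most the values of Sb06g022750, with 82 reads in the rhizome library.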
